A study of Mus musculus with 4 samples.

Results

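The 10 genes described here mark Kupffer cells and other macrophages: Clec4f, Timd4, Vsig4, Marco, C1qa, C1qb, C1qc, Fcgr1, Csf1r and Cd68. Each was found on the array by its gene symbol, each by 1 probe set that names no other gene, and together they are 10 of the 22180 named genes measured. RNA came from primary hepatocytes of 2-month-old male mice, kept for 16 h without serum. The 4 groups were Chrebp-KO hepatocytes with 25 mM fructose, wild-type (WT) hepatocytes with 25 mM fructose, Chrebp-KO hepatocytes without fructose (control) and WT hepatocytes without fructose (control), with 1 array each. The labels do not give the deleted part of Chrebp (Mlxipl), the number of mice, or any step that removes other liver cells, and the extraction label speaks of liver RNA where all other labels name primary hepatocytes. Because each group has a single array, no value below has a replicate error or a test, and differences are described by size.

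Kupffer cells are the resident macrophages of the liver. They sit in the sinusoids, where they take up bacteria, dead cells and immune complexes, and they depend on signals through the CSF1 receptor to survive. A hepatocyte preparation can hold some of them, because both cell types are released when the liver is digested. ChREBP, the factor missing in KO, is a sugar-responsive transcription factor of glycolysis and fat synthesis, and the study asks how its loss and fructose alter expression.

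Promoter sequences are shown for the 4 markers that were at least 1.5-fold lower in KO in both media, and for Cd68, the marker that was not lower in either. Each runs from 250 bases before the gene's start to 50 bases after it, 5′ to 3′ on the gene's strand, from RefSeq on GRCm38.p6. Fcgr1 is at chr3:96293920-96294219 (minus strand), Timd4 at chr11:46810549-46810848 (plus), Marco at chr1:120504975-120505274 (minus), C1qb at chr4:136886151-136886450 (minus) and Cd68 at chr11:69666121-69666420 (minus). Capitals mark GAGGAA, a core bound by the myeloid factor PU.1, TTCNNNGAA, a form bound by STAT factors, and TGACTCA, bound by AP-1, on either strand.
Fcgr1: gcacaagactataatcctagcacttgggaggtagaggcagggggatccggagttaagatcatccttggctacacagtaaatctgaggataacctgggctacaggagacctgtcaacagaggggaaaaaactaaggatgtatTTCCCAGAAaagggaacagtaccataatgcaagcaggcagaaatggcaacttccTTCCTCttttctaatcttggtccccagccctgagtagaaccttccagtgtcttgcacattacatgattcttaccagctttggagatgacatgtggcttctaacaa
Timd4: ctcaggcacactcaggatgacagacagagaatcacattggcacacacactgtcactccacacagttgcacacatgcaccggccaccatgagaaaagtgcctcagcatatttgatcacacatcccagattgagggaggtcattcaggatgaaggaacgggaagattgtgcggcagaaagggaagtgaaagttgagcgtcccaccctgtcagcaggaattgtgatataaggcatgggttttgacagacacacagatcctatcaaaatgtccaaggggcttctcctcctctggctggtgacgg
Marco: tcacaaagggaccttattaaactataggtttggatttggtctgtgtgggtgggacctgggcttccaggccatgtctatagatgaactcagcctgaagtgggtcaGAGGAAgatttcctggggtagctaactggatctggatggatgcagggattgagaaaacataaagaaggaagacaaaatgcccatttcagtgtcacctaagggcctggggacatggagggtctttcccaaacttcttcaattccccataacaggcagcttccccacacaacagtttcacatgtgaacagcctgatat
C1qb: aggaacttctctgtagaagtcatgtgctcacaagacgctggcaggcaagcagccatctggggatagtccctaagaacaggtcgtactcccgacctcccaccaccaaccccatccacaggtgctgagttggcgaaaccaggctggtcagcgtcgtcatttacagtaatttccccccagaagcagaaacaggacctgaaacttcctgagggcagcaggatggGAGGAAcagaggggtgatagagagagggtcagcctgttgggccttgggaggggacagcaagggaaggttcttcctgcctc
Cd68: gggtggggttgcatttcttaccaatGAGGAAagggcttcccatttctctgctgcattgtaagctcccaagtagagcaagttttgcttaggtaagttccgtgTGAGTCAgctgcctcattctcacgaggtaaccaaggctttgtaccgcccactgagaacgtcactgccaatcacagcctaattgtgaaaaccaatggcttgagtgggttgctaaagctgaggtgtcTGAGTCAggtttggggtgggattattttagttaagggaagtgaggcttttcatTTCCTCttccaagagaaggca
RefSeq promoters were at hand for 8 of the 10 markers, all but C1qa and Csf1r. GAGGAA was present in 6 of them and in 28.3% of all 32851 promoters of this length. Its first base was 55 bases before the start in Fcgr1, 30 before in C1qb and 146 before in Marco. In Cd68 it was 225 before and again 29 after, in Vsig4 155 and 53 before, and in C1qc 193 before. Timd4 and Clec4f had no match. TTCNNNGAA was present in 1, 109 bases before the start of Fcgr1, and in 8.3% of all promoters. TGACTCA was present in 1, Cd68, with a match 149 and another 24 bases before the start, and in 5.2% of all promoters. CACGTG, the E-box that recurs in elements bound by ChREBP, was in none of the 8 and in 7.15% of all promoters. These matches describe letters in a window and are not binding sites.

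Values are log2 expression after RMA. The background level of 4.764 is the 95th percentile of the mean levels of 1105 olfactory receptor genes, a family taken here to be mostly silent in liver cells. Between 10368 and 10447 genes lay above it on each array. The deleted gene itself, Mlxipl, was at 7.37 in KO fructose, against 8.43 in WT fructose, and at 7.42 in KO control, against 8.08 in WT control. It was 2.09-fold lower in KO with fructose and 1.58-fold lower without, and it stayed above background on both KO arrays, so it is a limited check of the genotype. All 19 measured hepatocyte markers of a list of 20 lay above background on every array. Of 24 general myeloid genes, 15 lay above it on the KO fructose, WT fructose and KO control arrays and 18 on the WT control array.

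Of the 10 markers, 8 were above background on all 4 arrays, and C1qc and Vsig4 were below it on all 4. Most of these markers were thus measurable in the hepatocyte preparations, and that pair was not. Vsig4, a receptor of Kupffer cells for complement C3 fragments, had log2 levels of 3.09 in KO fructose, against 3.11 in WT fructose, with 3.17 in KO control, against 3.43 in WT control. C1qc, the C chain of C1q, had 3.92 in KO fructose, against 4.15 in WT fructose, and 4.04 in KO control, against 4.73 in WT control, the last just under the background. No fold is given for either gene, and the values set no limit on the RNA behind a probe set this dim. Over the 8 detected markers, the mean log2 level was 6.39 in KO fructose, against 6.93 in WT fructose, with 6.34 in KO control, against 6.87 in WT control.

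**Figure D1:**
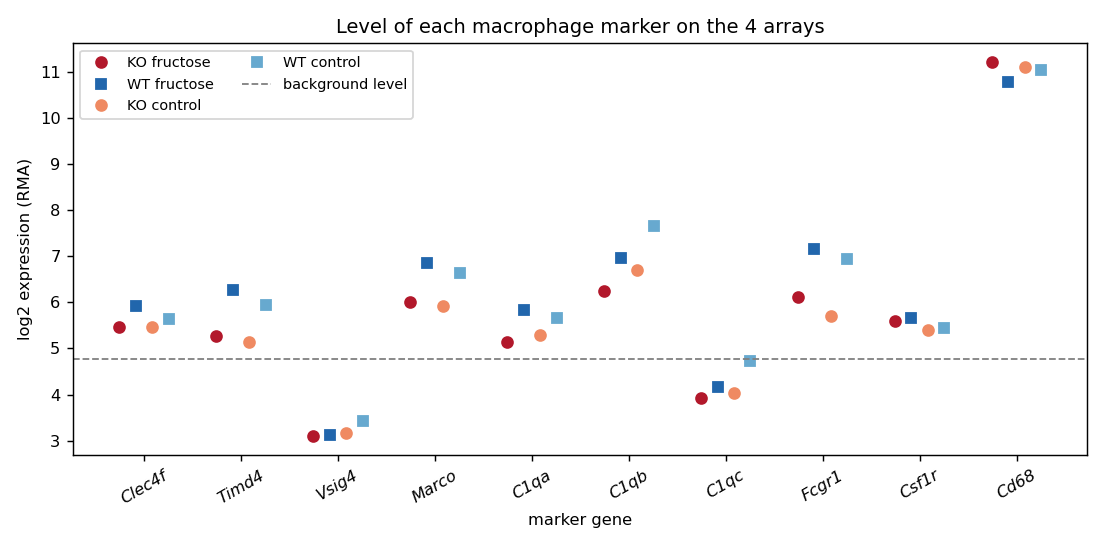
Level of each marker (log2 expression, vertical axis) on the KO fructose, WT fructose, KO control and WT control arrays, 1 point per array; the dashed line is the background level of 4.764. Circles are KO and squares WT. For Timd4, Marco, C1qb, Fcgr1, C1qa and Clec4f both KO points lie below both WT points, for Cd68 they lie above, and all points of C1qc and Vsig4 are under the line.

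Of the 4 markers of Kupffer cell identity, Timd4 and Marco were at least 1.5-fold lower in KO in both media, Clec4f was under 1.5-fold in both and Vsig4 was below background. Timd4 encodes a receptor by which resident macrophages bind phosphatidylserine on dying cells. Its log2 level was 5.26 in KO fructose, against 6.28 in WT fructose, and 5.13 in KO control, against 5.94 in WT control. Both KO values were below both WT values, a difference of 2.02-fold in fructose medium and 1.75-fold in control medium. Marco, a scavenger receptor for bacteria and particles, had 6.01 in KO fructose, against 6.85 in WT fructose, and 5.93 in KO control, against 6.65 in WT control. It was 1.79-fold lower in KO with fructose and 1.65-fold lower without. Clec4f, a C-type lectin that in mice is found almost only on Kupffer cells, had 5.47 in KO fructose, against 5.92 in WT fructose, and 5.46 in KO control, against 5.64 in WT control. The order of its arrays was the same as for Timd4 and Marco, but the differences were 1.37-fold in fructose medium and 1.13-fold in control medium, below the 1.5-fold used here to count a gene.

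Timd4 differed from Clec4f, the most Kupffer-restricted of the measured markers, by -0.56 in fructose medium and -0.63 in control medium (log2, KO minus WT of Timd4 minus that of Clec4f). In control medium Clec4f stood inside the bulk of the array: 1741 of 10720 detected genes, itself included, had a difference at least as low, against 44 for Timd4 and 61 for Marco. In fructose medium 561 of 10688 genes were as low as Clec4f, 78 as low as Timd4 and 125 as low as Marco.

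The C1q chains form 1 protein, the part of the first complement component that recognises antibodies and dying cells, and macrophages are its main source. C1qb had a log2 level of 6.25 in KO fructose, against 6.97 in WT fructose, and 6.70 in KO control, against 7.65 in WT control. It was 1.64-fold lower in KO with fructose and 1.94-fold lower without. C1qa had 5.15 in KO fructose, against 5.83 in WT fructose, and 5.30 in KO control, against 5.66 in WT control, which is 1.61-fold lower with fructose and 1.29-fold lower without. The genes for the A and B chains thus differed between genotypes by nearly the same amount in fructose medium (-0.69 for C1qa and -0.72 for C1qb) and by unequal amounts in control medium (-0.36 for C1qa and -0.96 for C1qb). With fructose C1qb was lower in both genotypes, and C1qa was not.

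Fcgr1 had the lowest KO-minus-WT value of the 10 markers in both media. It encodes CD64, the high-affinity receptor for immunoglobulin G, which macrophages make more of under interferon-gamma. Its log2 level was 6.12 in KO fructose, against 7.16 in WT fructose, and 5.70 in KO control, against 6.95 in WT control. The difference was 2.05-fold in fructose medium, where 74 of 10688 detected genes were as low, and 2.38-fold in control medium, where 7 of 10720 were. Among the 2245 detected genes within 0.5 log2 of its level in control medium, no other gene was as low. In fructose medium 12 of 2213 such genes, Fcgr1 included, were as low.

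Csf1r and Cd68 did not share the lower level. Csf1r, the receptor for CSF1 and IL-34 on which macrophages depend, had a log2 level of 5.59 in KO fructose, against 5.67 in WT fructose, and 5.40 in KO control, against 5.45 in WT control. The differences were -0.07 with fructose and -0.05 without (log2), and the medium separated its arrays more than the genotype did. Cd68, a lysosomal membrane glycoprotein, had 11.22 in KO fructose, against 10.79 in WT fructose, and 11.12 in KO control, against 11.04 in WT control. It was higher in KO by 0.44 (log2, 1.35-fold) with fructose and by 0.08 without. Its probe set was 6.28 log2 units above background on average, whereas the means of the other 7 detected markers lay 0.72 to 2.13 above it. Levels of different probe sets are not comparable as amounts of RNA.

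**Figure D2:**
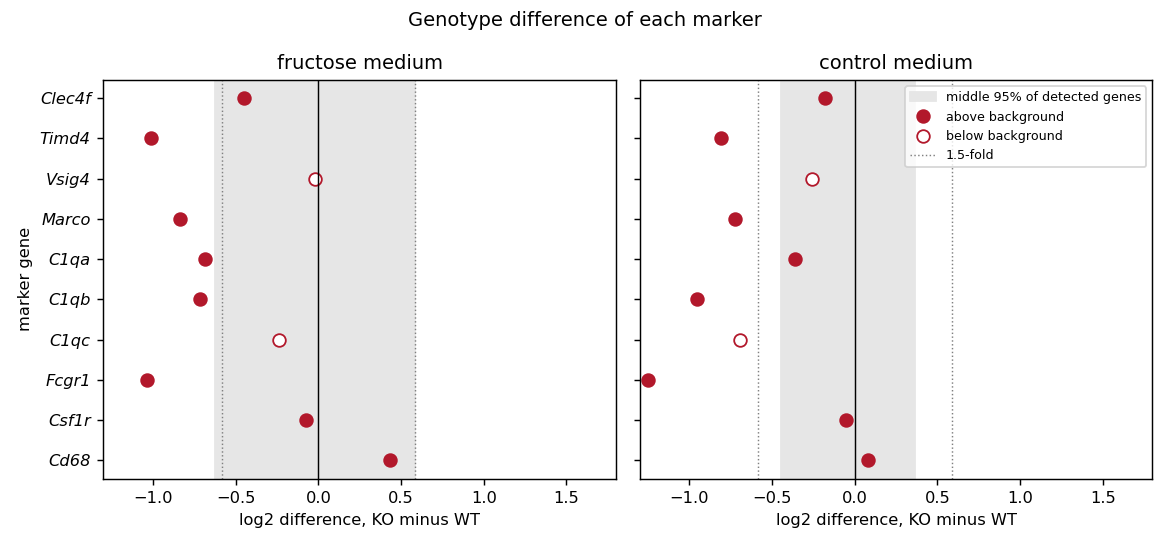
Log2 difference KO minus WT of each marker (1 array per group), in fructose medium (left) and control medium (right). Grey bands hold the middle 95% of all detected genes, dotted lines mark 1.5-fold and open circles are genes below background; Fcgr1, Timd4, C1qb and Marco lie left of the band in both panels, Csf1r near 0, and Cd68 at 0.44 (fructose) and 0.08 (control).

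The genotype difference was therefore not uniform across markers in these arrays. Over the 8 detected markers it ran from -1.04 to 0.44 in fructose medium, with a median of -0.70, and from -1.25 to 0.08 in control medium, with a median of -0.54. The medians of all detected genes were 0.01 in fructose medium and -0.01 in control medium. The standard deviation over the 8 markers was 0.51 in fructose medium and 0.47 in control medium. Over all detected genes it was 0.31 with fructose and 0.20 without, and over the olfactory receptor genes 0.18 with fructose and 0.17 without. The markers' value with fructose rests largely on Cd68, which lay 1.14 from their median. The other 7 lay between -0.34 (Fcgr1) and 0.63 (Csf1r) from it. Fcgr1 and Csf1r, both macrophage receptors, had KO-minus-WT values that were -0.96 apart with fructose and -1.19 apart without (Fcgr1 minus Csf1r). In bulk RNA, fewer cells of a type and less RNA per cell cannot be told apart.

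In fructose medium, 5 of the 8 detected markers were at least 1.5-fold lower in KO (Fcgr1, Timd4, Marco, C1qb and C1qa), where 2.86% of 10688 detected genes were. None was 1.5-fold higher, beside 2.45% of all. In control medium, 4 of 8 were at least 1.5-fold lower (Fcgr1, C1qb, Timd4 and Marco), beside 1.1% of 10720 genes, and none was higher, beside 0.476%. At 2-fold, 2 markers were lower with fructose, beside 0.739% of all genes, and 1 without, beside 0.196%. The genes were chosen with earlier results of these arrays known, so these counts are a description.

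The media use separate arrays, so each gives its own reading of the genotype difference, although cells of a genotype may share a preparation. Of the 8 markers, 7 were below 0 in both media and 1, Cd68, was above 0 in both, whereas 29.3% of 10358 genes were below 0 in both. At 1.5-fold, 4 markers were lower in both, and 49 of all 10358 genes were, or 0.473%. The largest shift of a marker between the media was 0.36 (log2, Cd68). Across the 8 markers, which share the same 4 arrays, the differences in the 2 media had a Pearson r of 0.87, and across all 10358 genes it was 0.35. The markers were chosen with earlier results known and spread more widely, which by itself raises r. The 2 values are therefore not like for like.

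**Figure D3:**
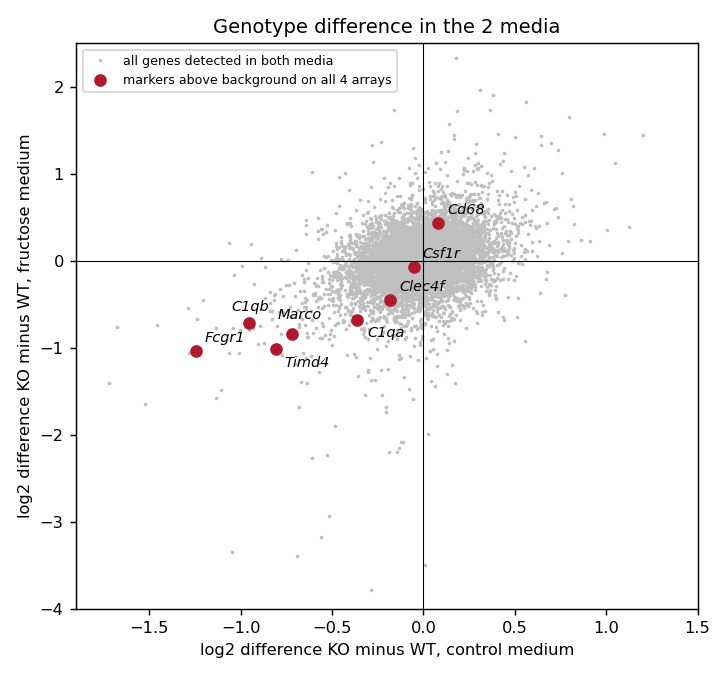
Log2 difference KO minus WT in control medium (horizontal) against fructose medium (vertical) for 10358 genes detected in both (grey) and the 8 markers above background on all arrays (red). Fcgr1, C1qb, Timd4 and Marco lie in the lower left outskirts, C1qa and Clec4f nearer the centre, and Csf1r and Cd68 within the main cloud.

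For Timd4, Marco, C1qa, C1qb and Fcgr1, both fructose differences were smaller in size than both genotype differences. These are the markers counted as lower in KO with fructose, so this follows in part from that choice. It did not hold for Clec4f, Csf1r and Cd68. Their fructose differences in WT were 0.28, 0.21 and -0.26, and their genotype differences in control medium were -0.18, -0.05 and 0.08 (log2, in that order). In KO, the 8 detected markers had a median log2 difference of 0.09 (fructose minus control) and none reached 1.5-fold, where 6.11% of 10752 genes were that much higher and 5.75% lower. In WT, the median was 0.21 and 1 marker, C1qb, was at least 1.5-fold lower, where 10.8% of 10814 genes were lower and 9.46% higher. C1qb was 1.36-fold lower with fructose in KO and 1.60-fold lower in WT. Fcgr1 was 1.34-fold higher with fructose in KO and 1.16-fold higher in WT, and Timd4 was 1.10-fold higher in KO and 1.26-fold higher in WT. Clec4f differed by 0.01 in KO and 0.28 in WT, Marco by 0.09 in KO and 0.20 in WT, and Csf1r by 0.19 in KO and 0.21 in WT (log2). All of these values but that of C1qb in WT lie inside the 1.5-fold range.

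For the difference of the fructose effects (KO minus WT), the markers ran from -0.32 for C1qa to 0.36 for Cd68, with a median of -0.07 and 0 of 8 at 1.5-fold, beside 2.86% of 11050 genes higher and 2.6% lower. It was 0.24 for C1qb, 0.21 for Fcgr1, -0.27 for Clec4f, -0.20 for Timd4, -0.12 for Marco and -0.02 for Csf1r.

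**Figure D4:**
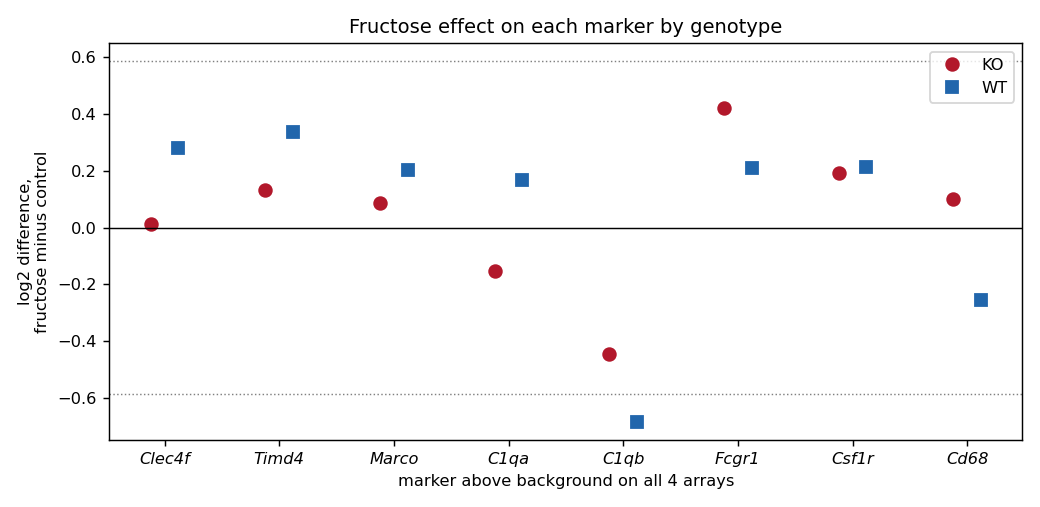
Log2 difference fructose minus control of the 8 detected markers in KO (circles) and WT (squares), 1 array per group; dotted lines mark 1.5-fold. C1qb is the lowest in both genotypes (-0.44 in KO and -0.68 in WT), and C1qa and Cd68 have opposite signs in KO and WT.

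Other genes that mark or serve macrophages were taken from lists, read beside the markers. In these lists a gene counts as 1.5-fold lower or higher when its fold reaches that with any value below background raised to it. By this count, 2.6% of 10688 genes were lower in KO with fructose and 0.924% of 10720 without. The shares higher in KO were 2.18% with fructose and 0.373% without. Of 18 further Kupffer cell genes, 13 were detected in fructose medium, where 2 were at least 1.5-fold lower in KO and 0 higher (median -0.20), and 12 in control medium, where again 2 were lower and 0 higher (median -0.28). Folr2, a folate receptor of resident macrophages, was 1.85-fold lower with fructose and 1.47-fold lower without. Spic, a transcription factor of iron-handling macrophages, was 1.67-fold lower with fructose and 1.57-fold lower without, and Cd5l, a protein that macrophages secrete, 1.48-fold lower with fructose and 1.61-fold lower without. Adgre1, the gene of the F4/80 antigen, was above background on the WT fructose array alone and was at least 1.29-fold lower in KO there. Some genes went against the list's median, with 3 of 13 detected genes above 0 with fructose and 1 of 12 without. Nr1h3, the oxysterol receptor LXR alpha, which hepatocytes also make, was at 0.25 with fructose and -0.21 without. C6 was at 0.24 with fructose and 0.01 without (log2). Cd163, a haemoglobin scavenger receptor, was below background on all 4 arrays.

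Among general myeloid genes, 3 of 16 detected were at least 1.5-fold lower in KO with fructose and 2 of 18 without, with 0 higher in either and medians of -0.23 with fructose and -0.27 without. With fructose these were Cd53, a tetraspanin of white blood cells (-0.72), Ctss, the protease cathepsin S (-0.71), and Itgb2, a leukocyte integrin (-0.59). Without fructose they were Fcer1g, an Fc receptor signalling chain (-0.77), and Laptm5, a lysosomal protein of white blood cells (-0.71). Itgam, the partner of Itgb2, was at least 1.31-fold lower with fructose and Ms4a7 at least 1.07-fold lower without, each with its KO array below background. Some members had the opposite sign in fructose medium, among them Lcp1, an actin-bundling protein (0.32), and Lyz2, lysozyme (0.29). The monocyte and recruited macrophage list had 3 of its 12 measured genes detected in each medium, with 0 at 1.5-fold in either direction.

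The other Fc receptor genes differed unevenly. Fcer1g, the signalling chain that pairs with CD64, was 1.32-fold lower in KO with fructose and 1.70-fold lower without. Fcgr2b, the inhibitory Fc receptor, which sinusoidal endothelial cells also make, was 1.67-fold lower with fructose and 1.40-fold lower without. Fcgr4, an activating Fc receptor, was at least 1.28-fold lower with fructose, and its KO array was below background in both media, so its differences are bounds. Fcgr3, another activating receptor, went the other way with fructose, at least 1.05-fold higher in KO, and was at least 1.10-fold lower without. Fcgrt, the neonatal Fc receptor gene, which hepatocytes express, differed by 0.15 with fructose and 0.05 without (log2). Of the 5 genes, 1 was at least 1.5-fold lower in each medium, Fcgr2b with fructose and Fcer1g without.

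The list of C1 partner and complement receptor genes, which is wider than C1q itself, also differed unevenly. C1ra, a protease of the C1 complex that hepatocytes make, differed by -0.02 with fructose and 0.07 without, and C4b, a complement component also made in the liver, by -0.06 with fructose and -0.20 without. Cfp, which encodes properdin, a stabiliser of the alternative pathway made by white blood cells, was 1.61-fold lower in KO with fructose and 1.11-fold lower without. Cd93, a receptor of endothelial and myeloid cells, was 1.61-fold lower with fructose and 1.53-fold lower without, and C3ar1, the C3a receptor, 1.49-fold lower with fructose and 1.31-fold lower without. In all, 3 of 10 detected genes of this list were at least 1.5-fold lower with fructose (Cfp, Cd93 and Itgb2) and 1 of 10 without (Cd93). The medians were -0.35 with fructose and -0.22 without.

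Of the genes near Csf1r and Cd68 in function, few reached 1.5-fold. Of 6 detected genes of the CSF1 axis and its transcription factors, 0 reached 1.5-fold in either medium. Csf1, a ligand of the receptor, differed by 0.02 with fructose and -0.17 without, Spi1, which encodes PU.1, by -0.19 with fructose and -0.22 without, and Csf2ra, a subunit of the GM-CSF receptor, by -0.38 with fructose and -0.47 without. Il34 was below background on all 4 arrays. Of 9 detected lysosomal glycoprotein and cathepsin genes, 2 were at least 1.5-fold lower with fructose, Ctss (-0.71) and Cd63 (-0.62), and 0 without, with medians of -0.04 with fructose and -0.09 without. Lamp1, a relative of Cd68, was at 0.12 with fructose and 0.14 without.

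Scavenger and dead-cell uptake receptors, the class of Marco and Timd4, showed little difference as a list, with medians of 0.01 in fructose medium and -0.06 in control medium. Of 11 detected with fructose, 1 was at least 1.5-fold higher in KO, Pros1, a bridging protein that hepatocytes secrete (0.68), and 0 lower. Over all detected genes, 2.18% were that much higher with fructose. Of 13 detected without, 0 reached 1.5-fold. Msr1, the class A scavenger receptor related to Marco, was at -0.34 with fructose and -0.29 without, and Axl, a receptor for bridged phosphatidylserine, at -0.39 with fructose and -0.46 without.

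Genes of other programmes also differed between the genotypes. Of the sinusoidal endothelial list, 13 of 18 genes were detected in each medium, 3 were at least 1.5-fold lower in KO with fructose and 2 without, and the medians were -0.27 with fructose and -0.41 without. The log2 of the summed level of the 18 genes was 9.85 in KO fructose, against 10.20 in WT fructose, with 9.91 in KO control, against 10.35 in WT control. The defining genes Stab2 and Clec4g were nevertheless below background on all 4 arrays. The same sum over the 10 markers, in which the bright Cd68 weighs most, was not lower in KO with fructose. It was 11.45 in KO fructose, against 11.24 in WT fructose, with 11.36 in KO control, against 11.44 in WT control. Interferon-gamma response genes had medians of -0.35 in both media, with 3 of 11 detected genes at least 1.5-fold lower with fructose and 2 of 12 without. Cd274, which encodes PD-L1, was 2.09-fold lower with fructose and 2.44-fold lower without, and Cxcl10, an interferon-induced chemokine, 1.71-fold lower with fructose and 2.20-fold lower without. Hepatocyte markers had medians of 0.03 with fructose and -0.02 without, with 0 of 19 at 1.5-fold in either medium. The part of endothelial RNA, of interferon response and of cell content in the marker differences was not tested.

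Lymphoid and granulocyte RNA was near background. Of 7 measured B and plasma cell markers, 0 were above background on any array, and 1 of 9 neutrophil markers and 2 of 11 T and NK cell markers were above it on at least 1 array. Of 12 stellate cell markers, 3 were.

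**Figure D5:**
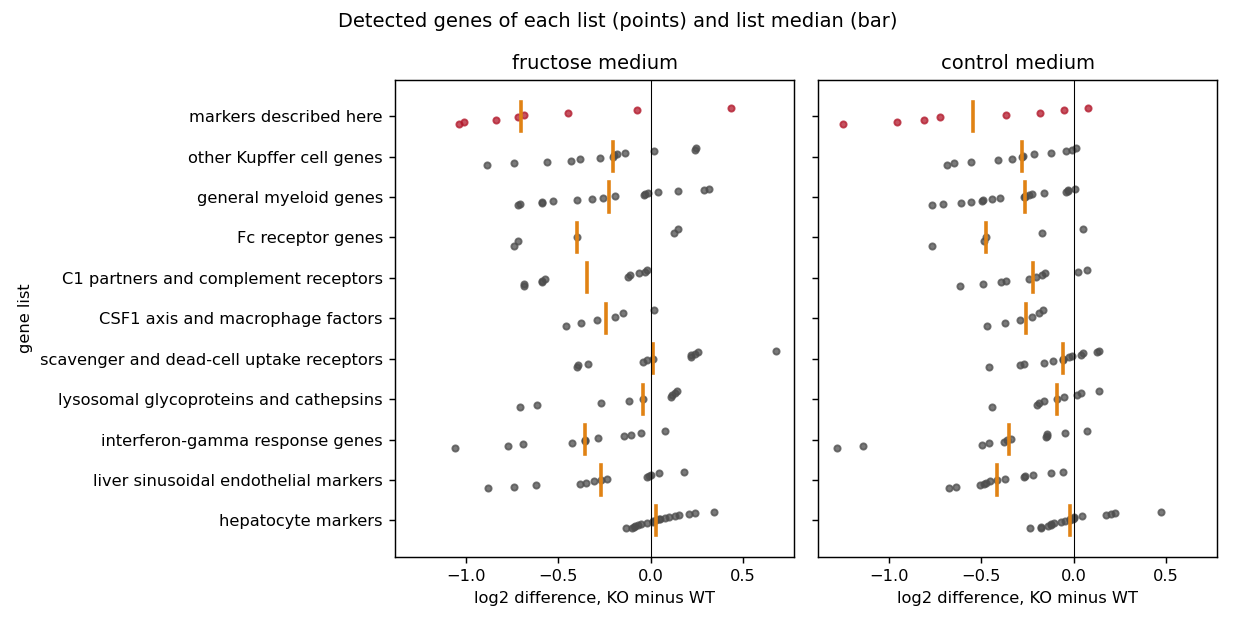
Log2 difference KO minus WT of the detected genes of each list (points) with the list median (bar), in fructose medium (left) and control medium (right). The 8 markers described here (red) have medians of -0.70 with fructose and -0.54 without, and spread over more than a log2 unit, while hepatocyte markers lie around 0.

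The genes most like the markers were sought by the shape of their 4 values. The markers' mean profile, each gene centred on its own mean, was -0.25 in KO fructose, against 0.30 in WT fructose, with -0.29 in KO control, against 0.24 in WT control (log2). Among 10159 other detected genes, the 8 with the smallest root mean square distance over the 4 arrays were Crybb3 and Phf11b (0.04 each), C3ar1 (0.05), Sdc3 and Sipa1l3 (0.06 each), Cmpk2 and Slc7a8 (0.06 each) and Jag1 (0.06). C3ar1 is a myeloid complement receptor, Cmpk2 an interferon-induced mitochondrial kinase, Jag1 a Notch ligand and Slc7a8 an amino acid transporter. The markers themselves lay 0.08 (C1qa) to 0.41 (Cd68) from their mean. The 8 genes were picked for the smallest distances, so that they lie closer follows from the choice. With 4 arrays many genes can share a profile.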

How the data were processed

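RNA of 4 samples, 1 array each, was measured. Per the labels, 400 ng of total RNA was labelled with biotin (whole-transcript kit). The authors deposited log2 values, 1 per probe set and array, for which the submitters' processing notes name RMA and R 3.4.0; RMA makes array distributions alike, so a shift shared by all genes cannot be seen. The annotation version is not given in the sources used here, nor is the build. Of 41345 probe sets, 23521 had 1 gene symbol in the platform table, 1814 had several and 16010 are unnamed here; 23328 were matched by Entrez number to RefSeq (GRCm38.p6) for current names. Probe sets of a gene were averaged (log2), giving 22180 genes.

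The background was the 95th percentile of the mean level of olfactory receptor genes, and genes above it on at least 1 of the arrays compared were called detected. Where the dimmer array was below it, a fold is "at least", against the background. Differences and counts at 1.5-fold and 2-fold were computed with Python 3.11.15 and pandas 2.3.3 and tested on simulated data. With 1 array per group there is no test, and the number of arrays limits precision. The members and lists were chosen with earlier results of these data known. The naming rule takes all members, Mlxipl, up to 4 genes per list with the largest difference and those against its median, and the 8 closest profiles; other list genes were named after their values were seen. The 16 lists besides the markers hold 202 genes, 190 of them measured. Alternatives were median centring, repeated quantile normalization, loess (span 0.3), no or a stricter filter, values raised to background, subtraction of the silent-gene signal, the brightest probe set, other folds and other summaries.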

Additional observations from a re-analysis of the deposited data

Results flagged for a closer look

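Fructose and control arrays differed in opposite directions in the 2 genotypes for 2 of the 8 detected markers, with 1 array per group, and the difference was not tested. C1qa was at -0.15 in KO and 0.17 in WT (log2, fructose minus control), and Cd68 at 0.10 in KO and -0.26 in WT. All 4 values are under 1.5-fold.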

How the results depend on the processing

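No paired analysis was possible because each group has 1 array and the labels carry no replicate numbers, and no array could be left out. Each detected marker kept the sign of its KO-minus-WT difference in both media under all alternatives that gave it a value. For several alternatives this was fixed beforehand, because each detected marker has 1 probe set and lay above background on all 4 arrays. The filters, the raising to background and the brightest probe set therefore could not change its value. Fcgr1 ranged from -1.14 to -1.04 with fructose and from -1.41 to -1.22 without, the lowest values coming from subtraction of the silent-gene signal. The median KO-minus-WT difference with fructose moved to -0.57 without the filter on dim genes, which brings in C1qc and Vsig4, to -0.82 with silent-gene signal subtracted and to -0.55 with the mean; without fructose it moved to -0.81 with the stricter filter and, leaving out each marker in turn, lay between -0.72 and -0.36, the upper end above the medians of the Fc receptor (-0.47) and endothelial (-0.41) lists. The mean fructose effect in WT was 0.059, and the median difference of effects became 0.095 without the filter. At 2-fold, 2 markers were lower in KO with fructose (Fcgr1 and Timd4), 1 without (Fcgr1), and 0 with fructose in WT. At a log2 difference of 0.32, 6 markers were lower in KO with fructose (9.73% of all detected genes) and 1 higher, Cd68 (10.3%), and 5 were lower without (5.69%) and 0 higher (3.64%). At that size 1 was higher (Fcgr1, beside 17.1%) and 1 lower (C1qb, 17.2%) with fructose in KO, 1 higher (Timd4, 20.4%) and 1 lower (C1qb, 23.7%) with fructose in WT, and 1 higher (Cd68, 12.2%) and 1 lower (C1qa, 9.67%) in the difference of effects. The cause was not tested except where the construction shows it. Dim probe sets limit the values of C1qa, C1qc, Clec4f, Csf1r, Timd4 and Vsig4.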

Other observations

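Of the 49 genes at least 1.5-fold lower in KO in both media by their values as deposited, some with KO arrays below background, 9 were in the lists and 40 were in none. Besides the 4 markers, the list genes were Spic, Cd93, Cd274, Cxcl10 and Dnase1l3, an endonuclease gene used here as an endothelial marker. The other genes given here were named after their values were seen. Some are induced by interferon, with Ifi209 at -1.65 with fructose and -1.52 without, Ifit2 at -1.06 in both media, and Mx1 at -0.96 with fructose and -0.90 without. Chemokine genes were also present, among them Cxcl2 at -1.10 with fructose and -0.62 without. Others are known in myeloid cells. Igsf6, an immunoglobulin-family gene, was at -0.67 with fructose and -1.24 without, Pld4 at -0.80 with fructose and -0.96 without, Slamf7 at -0.95 with fructose and -0.87 without, and H2-Ab1, a class II antigen-presentation gene, at -0.67 with fructose and -0.83 without (log2, KO minus WT). The 49 genes also held Mlxipl and genes of hepatocyte sugar metabolism, among them Khk, ketohexokinase (-0.83 with fructose and -0.61 without), Pklr, liver pyruvate kinase (-1.39 with fructose and -0.67 without), and Me1, malic enzyme (-1.41 with fructose and -0.64 without).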
